A study of Sus scrofa with 15 samples.

Results

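The genes described here are 10 secreted or membrane-bound effector ligands of NK cells, namely the chemokines *CCL5*, *CCL4* and *XCL1*, the death ligands *TNFSF10* and *FASLG*, the cytokines *TNF*, *LTA* and *LTB* of the TNF family, and the cytokines *IFNG* and *CSF2*. They were picked by gene symbol as ligands that NK cells are known to make, and they are 10 of the 29886 genes counted. NK cells act on other cells by releasing cytotoxic granules, by engaging death receptors with ligands of the TNF family, and by secreting chemokines and cytokines that recruit and activate T cells, dendritic cells and macrophages. In humans and mice, NK cells that reside in the liver differ from circulating NK cells in the transcription factors and effector molecules that they carry, and TRAIL, the product of *TNFSF10*, is a known effector of liver NK cells. Transcripts of many of these ligands are induced within hours of activation, and the cells studied here were not stimulated.

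RNA was sequenced from 3 NK cell populations, each sorted from the same 5 pigs at 6 months of age, which gave 15 libraries. Blood NK cells came from peripheral blood mononuclear cells, and both liver populations came from fluid with which the liver was flushed through the portal vein, so cells that a flush does not release are not represented. Cells were depleted of CD3+ and CD172a+ cells with magnetic beads and sorted by flow cytometry as CD3-CD172a-CD8α high cells from blood (blood cNK cells), CD8α high cells from liver (liver cNK cells) and CD8α dim cells from liver (liver-resident NK cells, lrNK cells). The libraries were read from the 3′ end of transcripts, so counts do not grow with transcript length. Total counts per library ran from 2874092 to 3823973 in blood cNK cells (median 3749615), from 2886686 to 5680221 in liver cNK cells (median 3877028) and from 2003499 to 3776823 in lrNK cells (median 2407859).

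Levels are given as CPM, which are counts scaled by edgeR to the library size with TMM factors, in the order of pigs 1 to 5, with the mean ± SD over the 5 pigs. A floor of 3 counts corresponds to between 0.517 and 1.46 CPM depending on the library, and this floor covers counting error only. Differences are log2 fold changes with their standard error (SE) from edgeR, fitted over all 15 libraries and the 10939 genes that passed its filter on low counts, with p-values adjusted by the Benjamini-Hochberg method over those genes. This fit had no term for the pig, so its p-values do not use the pairing of populations within pigs. Fits with the pig as a block were alternatives. A gene is said to have risen or fallen where its adjusted p was under 0.05. The comparisons share libraries, so their results are not independent of each other. On the first 2 principal components, which held 77.7% and 6.91% of the variance of the 500 most variable genes, lrNK libraries were separate from all others. The lrNK library of pig 3 stood apart from the other lrNK libraries on the second component, at 17.2 against -7.47 to -1.33. On the first component the liver cNK library of pig 1 lay nearest to the lrNK libraries, at -3.96 against -17.5 to -11.97 for the other liver cNK libraries.

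The sorted cells carried the RNA of NK cells. All 13 of 13 listed NK cell markers passed the filter on low counts, and 0 of them had a count of 0 in any library. Their summed level ran from 3811 to 6403 CPM. By mean over all libraries *NKG7* was the most abundant (893 CPM, against 842 CPM for *TBX21*). In every blood and liver cNK library *TBX21* was above *NKG7*. In lrNK cells 5 of these markers rose and 4 fell against blood cNK cells. Among those that fell was *CD8A*, the sorting marker, by 3.43 on the log2 scale (SE 0.27, edgeR, Benjamini-Hochberg adjusted p = 1.24e-08, lower in 5 of 5 pigs). Since the cells were gated on CD8α, the direction of this fall was largely set by the sort, and it serves only as a check of the gates. Leaving out a pig or library in turn left between 3 and 5 of the markers higher in lrNK cells.

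Of the 10 ligands, 8 passed the filter on low counts and were tested, while *FASLG* and *CSF2* were too low. Between lrNK cells and blood cNK cells, which asks how resident liver NK cells differ from circulating ones, *TNFSF10*, *CCL4* and *XCL1* rose. These were 3 of the 8 tested ligands, where 8.62% of all genes tested rose, and 0 ligands fell, where 9.6% of all genes fell. The median log2 fold change of the 8 ligands was 0.97, against 0.01 over all genes tested. Without pig 5, 1 ligand in place of 3 rose in lrNK cells.

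Between liver and blood cNK cells, which asks what distinguishes CD8α high cells of the same phenotype in the 2 sites, edgeR called 0 of the 8 ligands higher and 0 lower. Of all genes tested, 0.0457% were called higher and 0.0183% lower, which amounts to 7 genes, while 549 genes had an unadjusted p under 0.05. DESeq2 called 1 ligand, *CCL4*, among 24 genes. The median log2 fold change of the 8 ligands was 0.87, against -0.02 over all genes.

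Between the 2 liver populations, *TNFSF10* rose in lrNK cells, which is 1 of 8 ligands where 6.96% of all genes tested rose, and 0 ligands fell, where 7.68% of all genes fell. The share of ligands that rose is therefore near that of all genes in this comparison. Their median log2 fold change was -0.01, against 0.02 over all genes. Whether a ligand's difference from blood was larger in either liver population than in the other is what this direct comparison tests, and *TNFSF10* alone passed.

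**Figure D1:**
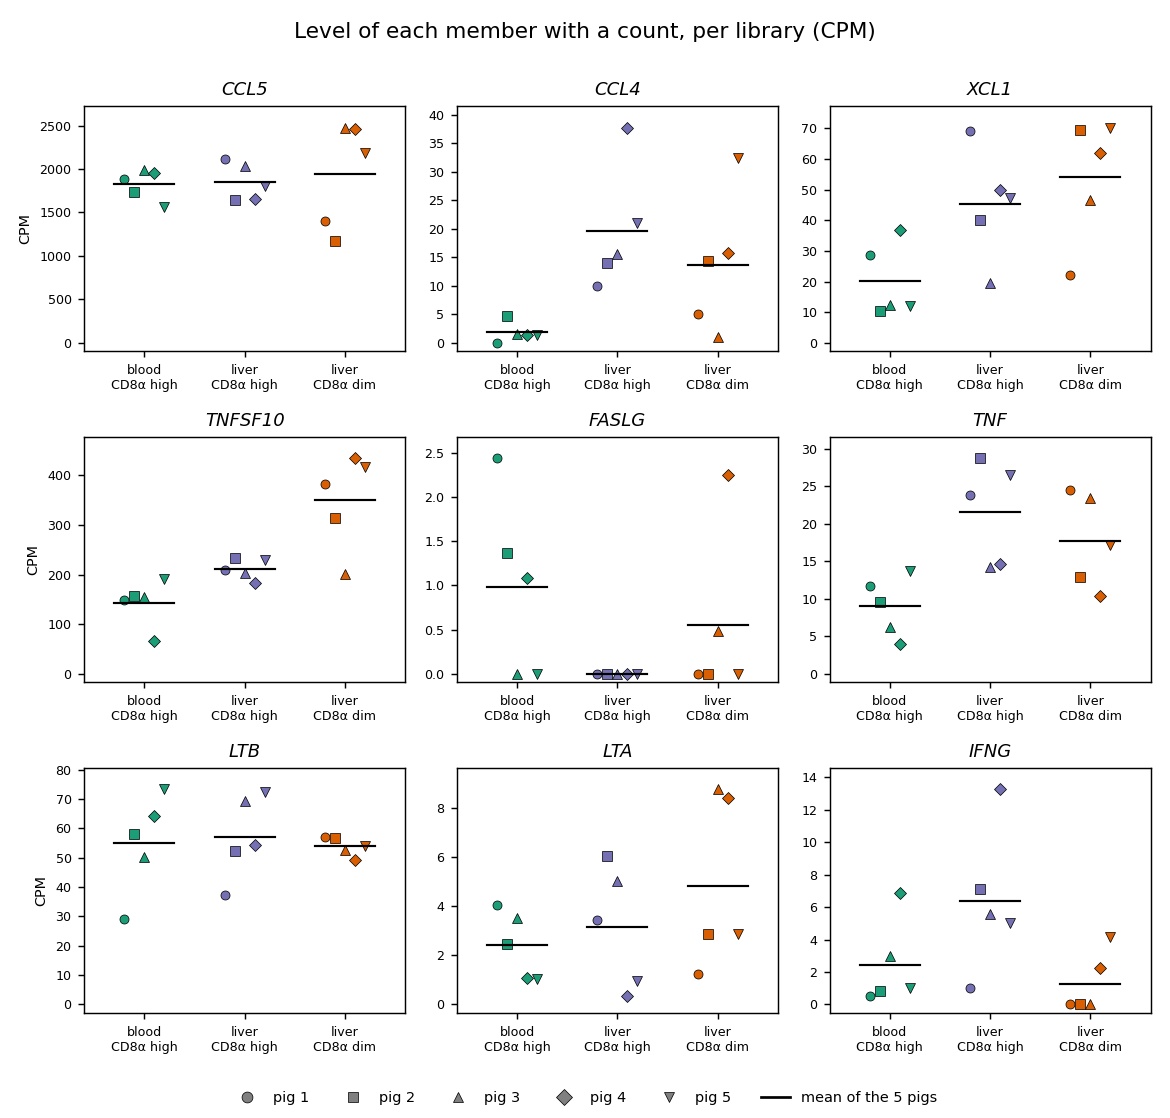
Level of each of the 9 ligands with a count, in CPM on the vertical axis of each panel (linear, with its own scale), in blood cNK, liver cNK and lrNK cells. Each symbol is the library of 1 pig and each bar the mean of 5 pigs; *TNFSF10* in lrNK cells lay above all blood values, *CCL4* in liver cNK cells did too, and *CCL5* overlapped in all populations.

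*CCL5*, a chemokine that draws T cells, monocytes and NK cells, was the most abundant ligand in every library. Blood cNK cells of pigs 1 to 5 had 1881, 1741, 1991, 1959 and 1566 CPM. Liver cNK cells had 2111, 1649, 2031, 1655 and 1806 CPM. In lrNK cells the values were 1405, 1169.7, 2478, 2460.4 and 2182 CPM. The populations overlapped, and the lrNK values fell into a lower pair, pigs 1 and 2, and a higher trio, with an SD of 612 CPM against 175 in blood.

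The mean of *CCL5* was 1828 ± 175 CPM in blood cNK, 1850.3 ± 213 CPM in liver cNK and 1939 ± 612 CPM in lrNK cells (n = 5 each). By mean level it ranked 57th, 52nd and 50th of the 29886 genes in these populations. It made up between 71.3% and 91.5% of the summed CPM of all 10 ligands in a library. Its log2 fold change between lrNK and blood cNK cells was 0.09 (SE 0.18, edgeR, Benjamini-Hochberg adjusted p = 0.811), and lrNK cells were higher in 3 of 5 pigs. The other differences, 0.02 between liver and blood cNK cells and 0.07 between lrNK and liver cNK cells, were also smaller than their SE of 0.18. The gene lies on chromosome 12 of Sscrofa11.1 (39652731 to 39659121).

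*CCL4*, a chemokine that is released by activated NK cells, lies on the same chromosome (39479190 to 39480511). In blood cNK cells it stood at 0, 4.66, 1.63, 1.45 and 1.36 CPM, from 0, 17, 6, 4 and 4 counts. In liver cNK cells it reached 10.01, 14.0, 15.6, 37.7 and 21.0 CPM. The lrNK cells had 4.98, 14.4, 0.974, 15.7 and 32.4 CPM, and the value of pig 3 rested on 2 counts. Every liver cNK library was above every blood library, whereas the lrNK library of pig 3 lay within the blood range.

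In lrNK cells *CCL4* rose against blood by a log2 fold change of 2.90 (SE 0.76, edgeR, Benjamini-Hochberg adjusted p = 0.00922), and it was higher in 4 of 5 pigs. The means were 13.7 ± 12.2 and 1.82 ± 1.71 CPM. Without pig 5 the fold change was 2.22 with an adjusted p of 0.111 in edgeR, so the call ended. Leaving out single libraries moved the value to 3.63 without the blood library of pig 2 and to 2.30 without the lrNK library of pig 5, and leaving out pig 2 moved it to 3.61.

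Between liver and blood cNK cells the *CCL4* difference was larger, with a mean of 19.7 ± 10.8 CPM in liver and a log2 fold change of 3.40 (SE 0.76). It was higher in 5 of 5 pigs with an unadjusted p of 2.15e-04, and the Benjamini-Hochberg adjusted p of 0.196 from edgeR missed the threshold. DESeq2 gave 3.43 with an adjusted p of 0.00340, and DESeq2 with the pig as a block gave 3.66 with an adjusted p of 4.12e-05. In edgeR the difference also passed without a filter on low counts (3.41, adjusted p = 0.00687), in a fit of the 2 populations alone (3.42, adjusted p = 0.0270) and without the lrNK library of pig 3 (3.42, adjusted p = 0.0242), which belongs to neither population compared. Over the alternatives without a left-out pig or library, the adjusted p ran from 4.12e-05 to 0.199. Over all pigs and libraries left out in turn, the log2 fold change in edgeR ran from 2.96 to 4.24 and the adjusted p from 0.0242 to 0.797. The difference between lrNK and liver cNK cells was -0.51 (SE 0.66, edgeR, Benjamini-Hochberg adjusted p = 0.713).

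*XCL1*, lymphotactin, attracts the dendritic cells that carry its receptor XCR1, and it lies on chromosome 4 (82432845 to 82436150). In blood cNK cells its values were 28.7, 10.4, 12.5, 36.9 and 11.9 CPM. In liver cNK cells they were 69.1, 40.1, 19.5, 49.8 and 47.3 CPM. In lrNK cells they were 22.0, 69.6, 46.8, 62.1 and 70.3 CPM. Most liver values exceeded the blood values, except that of pig 3 in liver cNK cells and that of pig 1 in lrNK cells, which lay within the blood range.

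The level of *XCL1* rose in lrNK cells against blood, from a mean of 20.1 ± 11.98 to 54.1 ± 20.3 CPM, by a log2 fold change of 1.44 (SE 0.39, edgeR, Benjamini-Hochberg adjusted p = 0.0125, higher in 4 of 5 pigs). The call ended without pig 2 (1.17, adjusted p = 0.0954) and without pig 5 (1.203, adjusted p = 0.0966). Liver cNK cells had a mean of 45.2 ± 17.9 CPM and were above blood in 5 of 5 pigs, by 1.17 (SE 0.39, edgeR, Benjamini-Hochberg adjusted p = 0.668). Between the 2 liver populations the difference was 0.27 (SE 0.38).

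*TNFSF10* encodes TRAIL, a membrane ligand that triggers apoptosis in cells with its death receptors. Blood cNK cells had 149.6, 157, 154, 65.8 and 190.4 CPM. Liver cNK cells had 209.6, 234, 203, 183 and 229.8 CPM. The lrNK cells had 383, 313, 201, 434 and 417 CPM. All lrNK values were above all blood values, and the lrNK library of pig 3 was the only lrNK value within the range of liver cNK cells.

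*TNFSF10* was the second most abundant ligand, with means of 143 ± 46.3, 212 ± 20.8 and 349.6 ± 95.3 CPM in blood cNK, liver cNK and lrNK cells, and ranks of 1417, 901 and 461 among the 29886 genes. It rose in lrNK cells against blood by a log2 fold change of 1.29 (SE 0.23, edgeR, Benjamini-Hochberg adjusted p = 3.91e-04), which is 2.44-fold, in 5 of 5 pigs. Leaving out any pig or library gave between 1.01 and 1.46, with an adjusted p of at most 0.0049 in edgeR. Liver cNK cells were also above blood in 5 of 5 pigs, by 0.56 (SE 0.23), but with a Benjamini-Hochberg adjusted p of 0.844 in edgeR and overlapping values.

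In the direct comparison of the liver populations, *TNFSF10* rose in lrNK cells by 0.73 (SE 0.23, edgeR, Benjamini-Hochberg adjusted p = 0.0365), which is 1.65-fold, in 4 of 5 pigs. This call was lost in 12 of 20 fits that left out a pig or a library. It was lost without pigs 1, 2, 4 or 5 in turn, with an adjusted p of 0.134, 0.0807, 0.0673 and 0.133. Each of the 5 liver cNK libraries ended it as well, in order of pigs with an adjusted p of 0.0638, 0.0556, 0.0808, 0.0940 and 0.0599. So did the lrNK libraries of pigs 1, 4 and 5, with 0.0765, 0.0923 and 0.0935. The fold change itself stayed between 0.59 and 0.87 in all 20 fits. The gene lies on chromosome 13 (111021952 to 111103060).

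*FASLG*, the ligand of the death receptor FAS and a classical effector of cytotoxic lymphocytes, had few counts. Blood libraries held 9, 5, 0, 3 and 0 counts, which is 2.44, 1.37, 0, 1.08 and 0 CPM. In liver cNK cells all 5 libraries held 0 counts, which allows up to 0.149 CPM over the 20183113 counts of the population. In lrNK cells there were 0, 0, 1, 8 and 0 counts. Most libraries were thus at or under the floor of 3 counts in every population, and *FASLG* was not tested. It lies on chromosome 9 (115068314 to 115075147).

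*TNF*, a cytokine that activates endothelium and macrophages and can induce cell death, had low CPM. Blood cNK cells had 11.7, 9.59, 6.24, 3.98 and 13.6 CPM. Liver cNK cells had 23.8, 28.7, 14.2, 14.6 and 26.5 CPM. The lrNK cells had 24.5, 13.0, 23.4, 10.4 and 17.2 CPM. The values of liver cNK cells lay above all blood values, the closest being 14.2 in liver against 13.6 in blood, and the lrNK values of pigs 2 and 4 lay within the blood range.

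The *TNF* difference between liver and blood cNK cells, with means of 21.6 ± 6.76 and 9.02 ± 3.93 CPM, was 1.25 on the log2 scale (SE 0.38) and had the same direction in 5 of 5 pigs. It did not pass in edgeR (Benjamini-Hochberg adjusted p = 0.544). The lrNK cells, at 17.7 ± 6.22 CPM, were above blood in 5 of 5 pigs by 0.96 (SE 0.38), and edgeR gave a Benjamini-Hochberg adjusted p of 0.0890, or 0.0504 with the pig as a block. In DESeq2 with the pig as a block both passed, with 1.32 (adjusted p = 0.0369) for liver cNK cells and 1.05 (adjusted p = 0.0271) for lrNK cells. Over the alternatives without a left-out pig or library, the adjusted p of *TNF* ran from 0.0369 to 0.584 for liver cNK cells and from 0.0271 to 0.167 for lrNK cells. Between the liver populations the difference was -0.29 (SE 0.37).

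*LTA*, *TNF* and *LTB* lie next to each other on chromosome 7, at 23696387 to 23698280, 23699635 to 23702393 and 23704842 to 23707036. Gaps of 1354 and 2448 bases separate them. *LTB* shares 1546 bases with *LST1*, which had 178 counts over all libraries against 2815 for *LTB*. How reads on shared bases were assigned is not stated, so some uncertainty attaches to *LTB*.

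*LTB*, the membrane partner of lymphotoxin alpha that signals through the lymphotoxin beta receptor in lymphoid tissue, had 29.0, 58.1, 50.2, 64.3 and 73.4 CPM in blood cNK cells. In liver cNK cells it had 37.3, 52.2, 69.1, 54.5 and 72.4 CPM. In lrNK cells it had 56.9, 56.6, 52.6, 49.1 and 54.1 CPM. All lrNK values lay inside the range of the blood values, and they were close together, with a coefficient of variation of 5.93% against 30.6% in blood and 24.8% in liver cNK cells. In blood and in liver cNK cells pig 1 was lowest and pig 5 highest.

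The means of *LTB* were 55.0 ± 16.8, 57.1 ± 14.2 and 53.9 ± 3.19 CPM in blood cNK, liver cNK and lrNK cells. The lrNK level differed from blood by -0.03 (SE 0.23, edgeR, Benjamini-Hochberg adjusted p = 0.958), from liver cNK cells by -0.09, and liver cNK cells from blood by 0.06. Each of these differences was smaller than its SE of 0.23, so no difference in *LTB* was found, and differences about the size of the SE could not be measured.

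*LTA*, the secreted lymphotoxin that shares receptors with TNF, was near the floor. Its levels were 4.06, 2.47, 3.53, 1.08 and 1.02 CPM in blood cNK cells. They were 3.45, 6.06, 5.02, 0.345 and 0.955 CPM in liver cNK cells and 1.25, 2.88, 8.77, 8.43 and 2.87 CPM in lrNK cells. The populations overlapped, and the highest values came from the lrNK cells of pigs 3 and 4. The difference between lrNK and blood cNK cells was 0.97 (SE 0.82, edgeR, Benjamini-Hochberg adjusted p = 0.483, higher in 4 of 5 pigs). Liver cNK cells differed from blood by 0.35 and lrNK cells from liver cNK cells by 0.62, each less than its SE. Leaving out a pig or library gave between 0.483 and 1.47 for lrNK against blood cNK cells. For lrNK against liver cNK cells it gave between 0.0138 and 1.13.

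*IFNG*, the cytokine with which NK cells activate macrophages and raise antigen presentation, also had few counts in these unstimulated cells. Blood cNK cells held 2, 3, 11, 19 and 3 counts, which is 0.542, 0.822, 2.98, 6.87 and 1.02 CPM. Liver cNK cells held 3, 27, 20, 77 and 21 counts, which is 1.04, 7.12, 5.58, 13.3 and 5.02 CPM. In lrNK cells the counts were 0, 0, 0, 8 and 16, or 0, 0, 0, 2.25 and 4.18 CPM, and the zeros compare with floors of 1.25, 1.44 and 1.46 CPM in these libraries. Within each pig the liver cNK cells had the highest level, and across pigs the populations overlapped.

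The *IFNG* level in lrNK cells was below that of liver cNK cells in 5 of 5 pigs, with means of 1.29 ± 1.89 and 6.40 ± 4.45 CPM and a log2 fold change of -2.18 (SE 1.04, edgeR, Benjamini-Hochberg adjusted p = 0.195). DESeq2 with the pig as a block gave -2.88 with an adjusted p of 0.0367, and over the alternatives without a left-out pig or library it ran from 0.0367 to 0.213. Leaving out a pig or library gave between -3.31 and -1.74 in edgeR, with an adjusted p from 0.0822 to 0.414. Liver cNK cells were above blood, at 2.45 ± 2.65 CPM, in 5 of 5 pigs by 1.40 (SE 1.00, edgeR, Benjamini-Hochberg adjusted p = 1.00). Over leaving out a pig or library this difference ran from 0.947 to 2.24. The lrNK cells differed from blood by -0.78 (SE 1.04). *IFNG* lies on chromosome 5 (32477906 to 32482670).

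*CSF2*, which encodes GM-CSF, a growth factor of granulocytes, macrophages and dendritic cells, had 0 counts in all 15 libraries. A count of 0 allows up to 0.175 CPM in blood cNK cells, 0.149 CPM in liver cNK cells and 0.216 CPM in lrNK cells, over the summed counts of each population, if its transcripts are counted at all by this annotation. It lies on chromosome 2 (134354724 to 134357155) and was not tested.

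**Figure D2:**
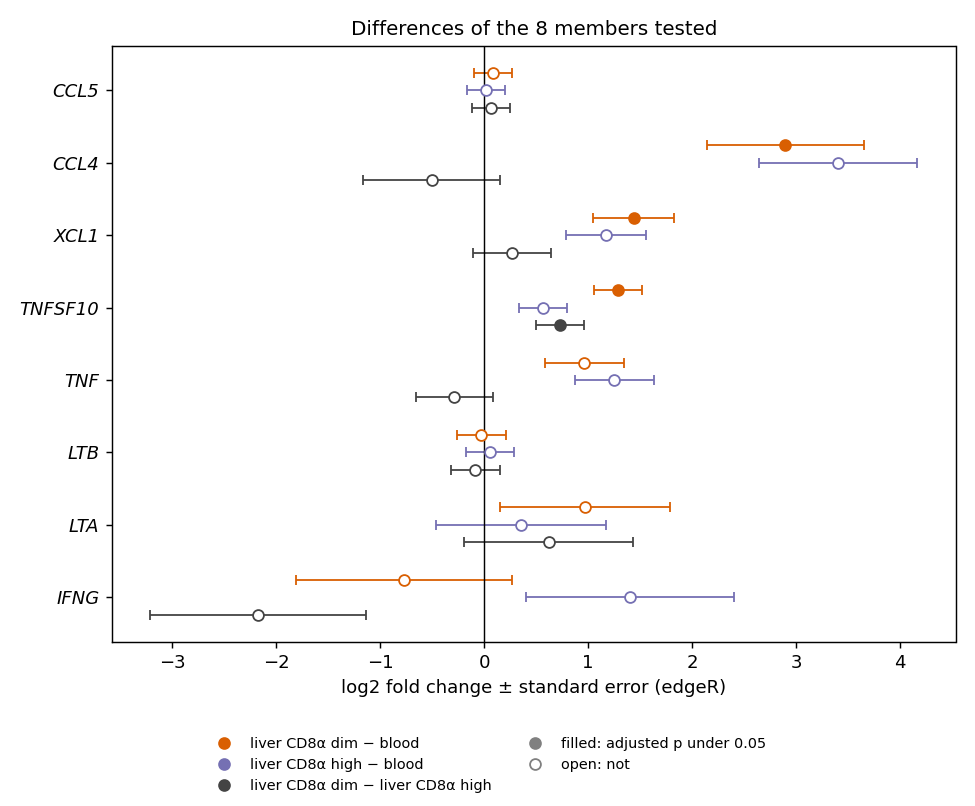
Log2 fold change of the 8 ligands tested, with bars of ± 1 standard error from edgeR, for each of the 3 comparisons; filled symbols mark a Benjamini-Hochberg adjusted p under 0.05. *TNFSF10* passed in both comparisons of lrNK cells, *CCL4* and *XCL1* passed between lrNK and blood cNK cells, and *CCL5* and *LTB* lie near 0.

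Seen together, the ligands had very unequal CPM. Although 3′ counts do not grow with transcript length, other properties of a gene can affect them, such as the annotation of its 3′ end and reads shared with other genes, so the order below is of counts and may differ from that of transcripts. A count of 0 is not read here as absence of a transcript, since *CD79A* was at 0 in all libraries in which *MS4A1* was counted. In blood cNK cells the order by mean CPM was *CCL5*, *TNFSF10*, *LTB*, *XCL1*, *TNF*, *IFNG*, *LTA*, *CCL4*, *FASLG* and *CSF2*. In liver cNK cells *TNF* and *CCL4* stood next to each other in this order, at 21.6 and 19.7 CPM, and did not differ beyond their spread. In lrNK cells *XCL1* (54.1 CPM) and *LTB* (53.9 CPM) were level. Counts above 3 in all 5 libraries were found for 5 of the 10 ligands in blood cNK cells, for 6 in liver cNK cells and for 5 in lrNK cells, with *CCL4* added in liver cNK cells.

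Libraries of different pigs differed in ligand levels. Each pig gave a single library per population, so differences between pigs and between libraries cannot be told apart. In blood, pig 4 had the lowest *TNFSF10* and *TNF* and the highest *XCL1* and *IFNG*. In liver cNK cells, pig 4 had the highest *CCL4* and *IFNG* and the lowest *TNFSF10* and *LTA*. In lrNK cells, pig 5 had the highest *CCL4*, *XCL1* and *IFNG*, and pig 3 had the lowest *CCL4* and *TNFSF10* and the highest *CCL5* and *LTA*. Such ranks did not hold across populations: pig 4, lowest in *TNFSF10* in blood and liver cNK cells, had its highest value in lrNK cells (434 CPM). Without *CCL5*, the ligands summed to 226, 244, 231, 181 and 293 CPM in blood cNK cells, to 354, 382, 332, 353 and 403 CPM in liver cNK cells and to 492, 469.9, 334, 585 and 598 CPM in lrNK cells. In each pig this sum was lowest in blood and highest in lrNK cells, by a small margin in pig 3, and *TNFSF10* was its largest part in every library.

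Similarity of profile over the 15 libraries, which share 5 pigs and 3 populations, was described by Pearson's r of log2 CPM (n = 15), without a test. The genes closest to *TNFSF10* were *PARP14* (r = 0.933), *EIF5B* (r = 0.932) and *IFIH1* (r = 0.902), and after subtracting the mean of each population *MRPL47* was closest (r = 0.944). For *CCL4* the closest gene was *TMF1* (r = 0.905), or *ALG10* (r = 0.926) after subtraction of the population means. *XCL1* was closest to *SLC25A33* (r = 0.881) and *TNF* to *PRPF38B* (r = 0.895), while for *CCL5* the closest gene was *DHRS7* with and without the subtraction (r = 0.863 without it). Among the ligands the closest pair was *TNF* and *TNFSF10* (r = 0.586), a choice from far fewer genes than those above.

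Receptors of the ligands were the next group. Counts for this and the other lists stand beside the shares of all genes tested. In lrNK cells 8.62% rose and 9.6% fell against blood, and 6.96% rose and 7.68% fell against liver cNK cells. Between liver and blood cNK cells 0.0457% rose and 0.0183% fell. Of 15 listed, 13 were in the counts and 8 were tested, of which 4 rose and 0 fell in lrNK cells against blood, with a median log2 fold change of 0.61. The 2 listed receptors without an entry under their symbols in the counts were *TNFRSF10A* and *TNFRSF10B*, the TRAIL receptors through which *TNFSF10* acts, so they were not analysed here. *FAS*, the death receptor that *FASLG* engages, had 6.50, 20.8, 10.9, 6.50 and 6.82 CPM in blood cNK cells, 22.1, 25.3, 16.7, 13.3 and 11.2 CPM in liver cNK cells and 80.2, 56.2, 58.9, 55.0 and 92.5 CPM in lrNK cells. All lrNK values of *FAS* exceeded all others, and it rose by 2.72 against blood (SE 0.35, edgeR, Benjamini-Hochberg adjusted p = 6.91e-06, 5 of 5 pigs) and by 1.96 against liver cNK cells (SE 0.33, adjusted p = 2.53e-04).

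*IFNGR1*, the ligand-binding chain of the interferon-γ receptor, rose in lrNK cells against blood by 1.03 (SE 0.24, edgeR, Benjamini-Hochberg adjusted p = 0.00365, 5 of 5 pigs), from 34.0 to 69.4 CPM. *CSF2RB*, the signalling chain of the GM-CSF receptor, rose from 0.688 to 10.7 CPM (3.91, SE 1.08, adjusted p = 0.0134), and the call ended without pig 1 (3.63, adjusted p = 0.0609) or pig 2 (3.71, adjusted p = 0.0616). Between the liver populations 3 receptors rose and 1 fell, with a median of 0.13. The fall, that of *TNFRSF1B* (-0.66, SE 0.21, edgeR, Benjamini-Hochberg adjusted p = 0.0385), was lost in 11 of 29 alternatives. With the pig as a block, 1 receptor in place of 0 fell against blood and 2 in place of 1 against liver cNK cells. Between liver and blood cNK cells 0 were called, with a median of 0.14. *LTBR*, *CSF2RA* and *TNFRSF11B* stood at 0 in most libraries.

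*XCR1*, the receptor of XCL1, had 28, 9, 24, 18 and 40 counts in the lrNK libraries, and 1 count in blood and 1 in liver cNK cells, both in pig 1. Pooled over the population, the ratio to blood was 143 with a 95% exact counting interval of 25.1 to 5688, which covers counting error only and leaves out the spread between pigs, and it rose in edgeR against both populations (Benjamini-Hochberg adjusted p = 2.31e-04 and 2.28e-04). *XCR1* is also a marker of dendritic cells. The 4 listed markers of these cells, *XCR1* among them, summed to 12.5, 9.12, 11.7, 5.06 and 10.4 CPM in lrNK cells, to 1.63, 0, 0, 0.723 and 2.05 CPM in blood and to 1.04, 4.48, 0, 0 and 0 CPM in liver cNK cells. In lrNK cells *XCR1* was the most abundant of them except in pig 2, and in pigs 3, 4 and 5 the sum was *XCR1* alone. *BATF3* had 0.831, 4.80, 0, 0 and 0 CPM in lrNK cells and 1.35, 0, 0, 0.723 and 2.05 CPM in blood. In liver cNK cells *BATF3* had 0.691, 2.90, 0, 0 and 0 CPM. *CLEC9A* had 0 counts in all libraries and *FLT3* had 6 counts in a liver cNK library and 0 in all others.

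Of 13 other ligands of the TNF superfamily, 7 were tested, of which 3 rose and 0 fell in lrNK cells against blood (median 1.71) and against liver cNK cells (median 0.63), and 0 were called between liver and blood cNK cells (median 0.20). *TNFSF9*, the ligand of the costimulator 4-1BB, had 18.4, 10.1, 11.13, 8.31 and 6.48 CPM in blood cNK cells, 54.2, 16.9, 17.0, 9.65 and 7.88 CPM in liver cNK cells and 259.6, 157, 115, 219 and 195 CPM in lrNK cells. The lrNK values lay above all others, and *TNFSF9* rose against blood by 4.10 (SE 0.44, edgeR, Benjamini-Hochberg adjusted p = 7.27e-07). *TNFSF14*, known as LIGHT, which shares a receptor with the lymphotoxins, rose by 2.4998 (adjusted p = 1.39e-05), and *TNFSF4*, the ligand of OX40, rose by 2.16 (adjusted p = 3.86e-04), each in 5 of 5 pigs.

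**Figure D3:**
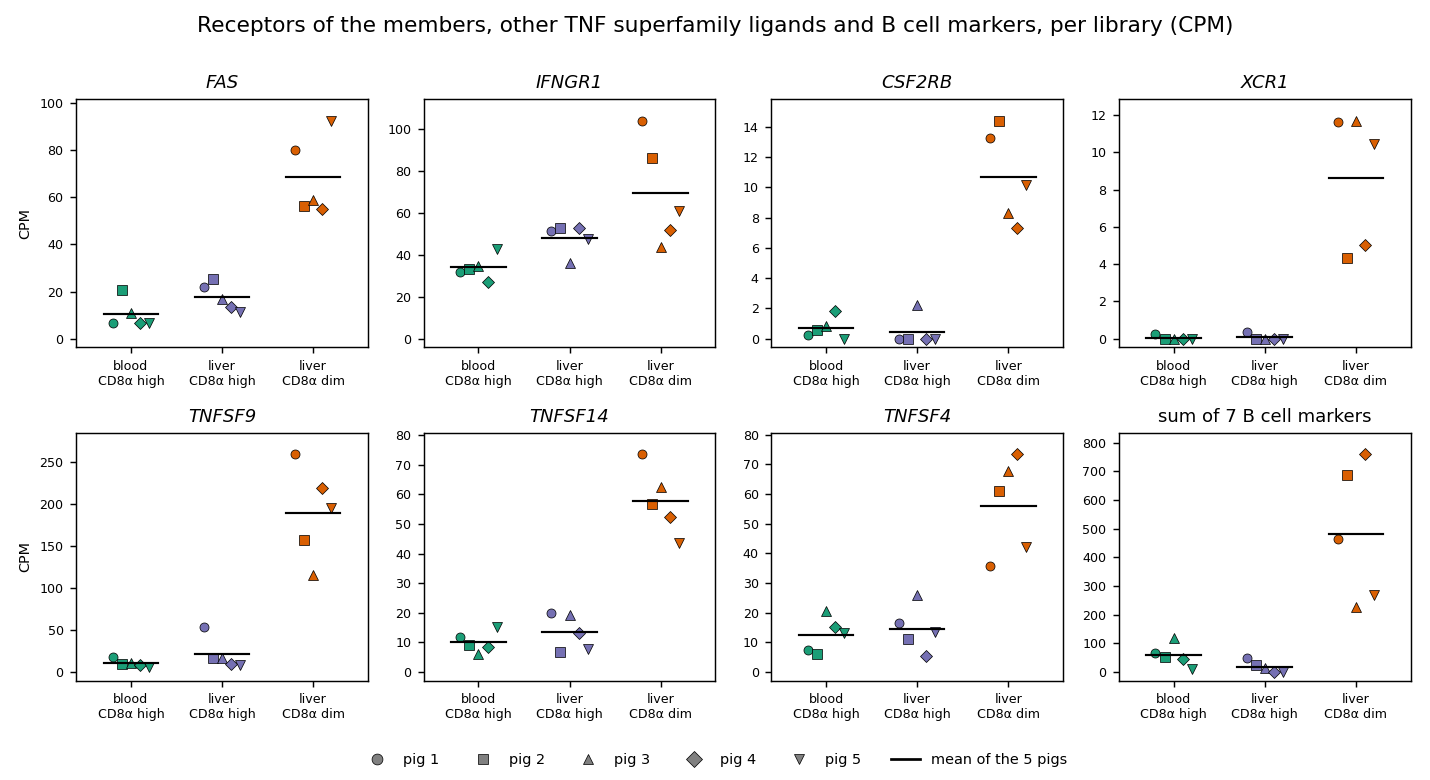
Levels of 4 receptors of the ligands, of 3 other TNF superfamily ligands and of the summed B cell markers, in CPM on linear vertical axes, in blood cNK, liver cNK and lrNK cells. Each symbol is the library of 1 pig and each bar the mean of 5 pigs; in every panel but that of *IFNGR1* the lrNK values lie above all values of both other populations.

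Markers of B cells were higher in the same population in which these ligands and receptors were higher. Of 7 listed, 6 were tested and 6 rose in lrNK cells against blood. *MS4A1* was the most abundant in every lrNK library, and *CD79A* stood at 0 in all libraries. Without pig 2 the number that rose was 2 and without pig 4 it was 3. Their sum was 465, 687, 226, 759 and 269.8 CPM in lrNK cells, 67.7, 52.4, 117.5, 44.4 and 10.9 CPM in blood cNK cells and 48.0, 24.8, 14.8, 1.38 and 0.239 CPM in liver cNK cells. Their part in the results for *TNFSF10*, *CCL4*, *XCL1* and the receptors was not tested, and in bulk samples fewer cells of a type and less RNA per cell cannot be told apart. Of 6 T cell markers, 1 of 3 tested fell in lrNK cells against blood, namely *CD3G* from 865 to 289 CPM, which was the most abundant, while *CD4* and *CD5* had 0 counts. *CD3D* and *CD3E*, the others tested, were not called. *CD3D* had 7.32, 3.29, 4.07, 2.53 and 1.71 CPM in blood cNK cells and 7.48, 2.40, 11.2, 6.46 and 14.6 CPM in lrNK cells. *CD3E* had at most 28.0 CPM in a library. The sum of the 6 markers was mostly *CD3G* in every library. This sum was 637, 939.9, 743, 1203 and 878 CPM in blood cNK cells, 722, 788, 714, 907 and 1076 CPM in liver cNK cells and 593, 109.9, 120.3, 383 and 291 CPM in lrNK cells, and its part in the results was not tested.

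Markers of other cells differed in level. The 11 macrophage and monocyte markers summed to at most 25.6 CPM in a library, with *CSF1R* and *CD163* at 0. By mean over all libraries *LYZ* was the most abundant, with 25.6 CPM in lrNK cells of pig 4. In liver cNK cells it was not, and its highest value there was 1.04 CPM. *LYZ*, the only one tested, rose in lrNK cells against liver cNK cells by 4.57 (edgeR, Benjamini-Hochberg adjusted p = 0.0272), and with the pig as a block its adjusted p was 0.0512; the call was lost in 7 of 28 alternatives. Hepatocyte markers summed to at most 9.74 CPM (*APOA1* and *TTR* at 0) and endothelial markers to at most 18.5 CPM (*STAB2* at 0). Markers of granulocytes and mast cells summed to at most 9.26 CPM (*S100A8* and *S100A9* at 0). By mean over all libraries the most abundant genes of these lists were *ALB*, *PECAM1* and *MS4A2* in turn. Platelet and erythroid markers summed to 69.1 to 393 CPM, with *GP9* the most abundant in every library but that of blood pig 4, where *HBB* had 302 CPM, and 0 were called. The part of this erythroid RNA in the ligand values of blood pig 4 was not tested. Markers of other innate lymphoid cells summed to 163 to 379 CPM, mostly *GATA3*, and *IL1RL1* rose in lrNK cells against blood by 5.37 (edgeR, Benjamini-Hochberg adjusted p = 5.41e-05).

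Genes that regulate NK cytokine transcription, repressors among them, were called in both directions in lrNK cells. Of 24 listed, 23 were tested, and 5 rose and 5 fell in lrNK cells against blood (median -0.09), while 3 rose and 6 fell against liver cNK cells (median -0.03). Leaving out a pig or library left between 3 and 6 of these falls, and those of *RUNX3* and *STAT5B* were lost in 21 and 15 of 29 alternatives. Against blood, *EOMES*, which drives the NK programme together with T-bet, rose by 4.09 and *IL18R1*, a receptor chain for IL-18, rose by 3.36, whereas *TBX21*, which encodes T-bet and activates *IFNG*, fell by 2.55 and *NFATC2*, a transcription factor of activated lymphocytes, fell by 1.53, each in 5 of 5 pigs. The edgeR adjusted p (Benjamini-Hochberg) of *TBX21* was 4.06e-08 and that of *NFATC2* 5.19e-04. The calls of *IKZF2* (0.56) and *PRDM1* (0.52) were less stable and were lost in 10 and 12 of 29 alternatives, leaving out a library among them.

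Among immediate early genes, which answer activation within minutes, 17 were listed and 14 tested. Between liver and blood cNK cells 2 rose, *EGR3* by 3.54 and *NR4A2* by 2.13, both with a Benjamini-Hochberg adjusted p of 0.0103 in edgeR and in 5 of 5 pigs, and the list's median was 0.57. With robust dispersion both had an adjusted p of 0.0556, and leaving out a pig or a library left between 0 and 2 of them called, with the highest adjusted p at 0.222 for *EGR3* and 0.104 for *NR4A2*, both without pig 1. In lrNK cells 5 rose and 2 fell against blood (median 0.41), *EGR3* (4.33) and *NR4A2* (1.97) among the risen in 29 of 29 alternatives, and 1 rose and 3 fell against liver cNK cells. *NR4A3* fell by 5.27 against blood, from 150.5 to 4.14 CPM, with an adjusted p of 2.03e-07.

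In the NF-κB pathway, through which TNF acts and which also induces *TNF* and *CCL5*, 13 of 15 genes were tested, and 4 rose and 1 fell in lrNK cells against blood (median 0.40). *BIRC3* rose by 1.12 and *NFKBIA*, the inhibitor that NF-κB itself induces, by 1.60 (edgeR, Benjamini-Hochberg adjusted p = 1.29e-04 and 8.90e-05). *TNFAIP3*, which encodes A20, fell by 1.25 (adjusted p = 0.00774), and its call ended without pig 2 (-1.04, adjusted p = 0.0644) or pig 4 (-0.89, adjusted p = 0.0738). Against liver cNK cells 3 rose and 1 fell, but the rise of *NFKBIA* was lost in 14 of 29 alternatives and the fall of *TNFAIP3* in 11 of 29. With the pig as a block 5 rose against blood and 4 against liver cNK cells. Of the 17 genes listed for interferon-γ signalling and response, 11 were tested, and 5 rose and 0 fell against blood (median 0.18), or 1 fell with the pig as a block. *JAK1*, the kinase of the receptor, rose by 1.33, *TAP1* by 0.54 and *PSMB9*, of the immunoproteasome, by 0.72, while *CXCL9*, *CXCL11* and *IDO1* had few or 0 counts. Against liver cNK cells 4 rose, or between 2 and 5 when a pig or library was left out, and the rise of *TAP1* was lost in 6 of 29 alternatives. In the same comparison 1 fell (2 with the block), *SOCS1*, a feedback inhibitor (-1.59, adjusted p = 0.0159), whose call ended without pig 5 (adjusted p = 0.0526) or the liver cNK library of pig 2 (-1.19, adjusted p = 0.0757).

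Genes of cytokine mRNA decay (14 tested) and of shedding and secretion (11 of 14 tested) act on ligands after transcription. Of the first, 2 rose and 2 fell in lrNK cells against blood, where 8.62% of all genes tested rose and 9.6% fell. Leaving out a pig or library left between 1 and 3 that rose and between 0 and 2 that fell. The rise of *ZFP36L1* was lost in 7 and the fall of *TIAL1* in 12 of 29 alternatives, whereas *PDCD4*, an inhibitor of translation, rose by 1.16 (edgeR, Benjamini-Hochberg adjusted p = 1.66e-05). The fall of *ZFP36L2* (-1.72, adjusted p = 0.0403) was lost in 11 of 29 alternatives, and without the blood library of pig 4 it was -0.59 with an adjusted p of 0.413. Of the second, 3 rose and 0 fell (1 with the pig as a block), and *SRGN*, the proteoglycan core of secretory granules that holds chemokines and granzymes, rose by 1.76 (adjusted p = 1.75e-05) from 151 to 512 CPM. Of 11 genes of death receptor signalling, 10 were tested and 1 rose against blood, a share near the 8.62% of all genes tested. It was *CASP8*, the initiator caspase of FAS and TRAIL receptors, which rose by 0.75 (edgeR, adjusted p = 0.00465).

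Most other chemokines and cytokines did not pass the filter on low counts. Of 24 chemokines 22 were in the counts and 0 passed the filter on low counts, and *CCL3L1*, the closest relative of *CCL4* among them, had means of 0.163, 1.15 and 0.735 CPM in blood cNK, liver cNK and lrNK cells. Reads that align to several genes of the family could affect these counts, since their treatment is not stated. Of 31 other cytokines 27 were in the counts and 5 were tested, and *IL16*, a chemoattractant of CD4+ cells, rose in lrNK cells against blood by 1.51 (edgeR, Benjamini-Hochberg adjusted p = 8.37e-05) and *IL24* by 2.98 (adjusted p = 4.89e-04). *TGFB1* fell by 0.58 (adjusted p = 0.0215), a call lost in 6 of 29 alternatives, among them leaving out pig 1 (adjusted p = 0.112).

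These values are RNA levels of unstimulated sorted cells and say nothing of stored or secreted protein. With 5 pigs per population and low counts, differences in *IFNG*, *LTA*, *FASLG* and *CSF2* of a few counts were below what could be measured. The calls of *CCL4* and *XCL1* against blood and of *TNFSF10* between the liver populations depended on single pigs, while that of *TNFSF10* against blood did not. Tissue and collection by flushing differ together between blood and liver cNK cells, and the sort gate differs as well between blood cNK and lrNK cells. The liver populations share tissue and collection and differ by the gate. Their libraries also differed in median total counts (2407859 in lrNK and 3877028 in liver cNK cells). The mean of the summed B cell markers was 481 CPM in lrNK and 17.8 CPM in liver cNK cells. The part of these in the results was not tested. Other cells in the sorted samples were examined here through marker RNA only.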

How the data were processed

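Counts of reads per gene symbol, as whole numbers without normalization, were deposited by the authors for 15 libraries (QuantSeq 3′ mRNA kit, NextSeq500). Per the submitters' processing notes and the paper, reads were trimmed with QuasR and aligned with HISAT2 to Sscrofa11.1; the counting tool, strand setting and treatment of multiply aligned reads are not stated. The tests ran with edgeR 4.0.16 under R 4.3.3 (TMM, filterByExpr by population, quasi-likelihood F test, all 15 libraries in 1 fit, Benjamini-Hochberg over 10939 genes). The SE is the size of the log2 fold change divided by the square root of F. DESeq2 1.42.0 was an alternative. Likeness used log2 CPM with a prior count of 2. The fits were tested on simulated data. Figures were drawn with Python 3.11.15, pandas 2.3.3 and matplotlib 3.10.9.

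For gene positions an annotation of Sscrofa11.1 was used; 29862 of 29886 symbols had an entry. Libraries of the same pig were checked for likeness: their deviations from the population means correlated at 0.107 on average, against -0.0265 between pigs, and fits with the pig as a block were run as alternatives. Chi-square per degree of freedom between libraries of the same population was 9.41 to 46.7 over 30 pairs, so none was a copy of another of its population; pairs across populations were not compared.

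The members and lists were chosen with earlier results of these data known. Genes named besides the members are, per list, comparison and direction, among the 4 with the highest mean CPM of those that passed; the most abundant gene and defining markers of other cell types; for likeness the 3 closest genes; and genes sharing bases with a member. *CCL3L1*, *LTBR*, *CSF2RA*, *TNFRSF11B*, *CXCL9*, *CXCL11*, *IDO1* and *BATF3* were named outside this rule, after their values were seen. Results of some genes are not reported here. Alternatives were other normalizations, filters, dispersion, thresholds, DESeq2, the block, fits of 2 populations and leaving out each pig or library. Flow cytometry and culture data of the study were not analysed here.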

Additional observations from a re-analysis of the deposited data

Results flagged for a closer look

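Among the 26 groups of 5 libraries in which a ligand had any spread, 1 held a library far from the others. *FASLG* in lrNK cells of pig 4 stood at 2.25 CPM, against 0 to 0.487 CPM in lrNK cells of the other pigs, so its gap to the nearest was 0.783 of the range. It rests on 8 counts. Chance marks about 1 in 20 groups of normally distributed values, and counts of this size are not normally distributed, so that rate was not tested for *FASLG*.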

How the results depend on the processing

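Of 694 recomputed fold changes of the ligands, 643 kept their direction and their side of the threshold, 15 lost the call, 8 gained it and 28 changed sign. Sign changes concerned differences near 0 or at low counts. *LTB* between lrNK and blood cNK cells was 0.0329 with the replicate block and 0.0445 in DESeq2 with that block. Over leaving out each pig or library, *LTB* ran from -0.20 to 0.11 between lrNK and blood cNK cells, from -0.23 to 0.0118 between the liver populations and from -0.0939 to 0.18 between liver and blood cNK cells. *CCL5* ran from -0.00136 to 0.23, from -0.0709 to 0.21 and from -0.0341 to 0.0819 in the same order. *IFNG* between lrNK and blood cNK cells ran from -2.01 to 0.0440, and *LTA* between liver and blood cNK cells from -0.0297 to 0.65. The causes were not tested.

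Ligands higher in liver than in blood cNK cells numbered 1 in DESeq2, 1 without a filter, 2 in DESeq2 with the block, 1 in a fit of the 2 populations and 0 to 1 over leave-outs. All genes called in that comparison numbered 24, 18, 175 and 16 under those settings, 4 with robust dispersion, 0 at an adjusted p under 0.01 and 0 to 12 over leave-outs. Between the liver populations, 1 ligand (*IFNG*) was lower in DESeq2 with the block, and 0 were higher at an adjusted p under 0.01. Leave-outs gave 0 to 1 higher there and 1 to 3 higher between lrNK and blood cNK cells. At an adjusted p under 0.01, 1199 genes were called between lrNK and blood cNK cells and 947 between the liver populations, and leave-outs gave 1472 to 2301 and 1051 to 1764. The block in edgeR changed no call of a ligand. *IFNG* and *LTA* between lrNK and blood cNK cells had no value in 1 alternative, whose filter left them out.

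Among the lists, 3718 of 3906 recomputed counts stayed within 1.5 times their value and 188 did not. Of 2955 recomputed fold changes of named list genes, 229 lost the call and 0 changed sign. Counts of *FASLG*, *CSF2*, *IFNG* and *LTA*, and of *CCL4* in blood, were low, and whether depth or the counting of these genes was the cause was not tested.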
